A study of Mus musculus with 5 samples.

Results

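Tumor endothelial cells (TECs) of Hepa1-6 tumors were compared with cultured cells of Hepa1-6, the mouse hepatoma line from which the same tumors had been grown. The comparison used 2 of the 5 gene expression arrays of the study, 1 for each condition, and the other 3 held liver sinusoidal endothelial cells (LSECs) of mouse liver and TECs of HAK-1B and KYN-2 tumors. The TEC sample carried the strain label C57BL/6 and was the CD31-positive fraction that magnetic beads retained from collagenase-digested tumors, grown in the left liver lobe of mice after inoculation of the line. The cultured sample carried the strain label C57L and was kept in DMEM with serum, without contact with other cell types. Tumor cells around the Hepa1-6 TECs were thus of mouse origin, unlike those of the other TEC arrays, since KYN-2 and HAK-1B come from human hepatomas. CD31 was the only marker of the bead selection, and the number of tumors pooled for the TEC sample is not given in the sources used here. The paper checked the purity of the isolated cells by flow cytometry. It states that some contamination by cancer cells cannot be avoided, and it took cancer cell-related genes out of its list of TEC-specific genes. The methods describe female mice, aged 6 weeks at the start, of the strain C57BL/6 or nude.

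The members described below were genes that differed by more than 8-fold between the 2 arrays. Of 37074 gene names on the array, 29650 had a probe well above background on either array, and 3231 of these passed the limit of 8-fold in the ratio defined below.

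Endothelial cells line blood vessels and are recognised by CD31 (Pecam1), the junction protein VE-cadherin (Cdh5) and the receptors for VEGF and angiopoietins. In the liver the sinusoidal endothelium is fenestrated, scavenges material from portal blood through stabilins and C-type lectins, and lies next to resident macrophages, the Kupffer cells. A tumor adds new vessels by sprouting, led by tip cells, and recruits myeloid cells that shape the vessel wall. Hepatoma cells in turn keep part of the program of the fetal hepatocyte, such as alpha-fetoprotein (Afp) and the keratins of simple epithelium (Krt8 and Krt18), and divide continuously in culture.

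The arrays carried 60-base probes and were read in 1 colour (Cy3). A value is the background-subtracted intensity of a probe, and after averaging of repeated spots 56605 probes were read on each array. On the TEC array 78.1% of the probes were well above background, against 44.6% on the array of cultured cells and between 54.1% and 57.6% on the other 3. Repeated spots of a probe varied by a median of 2.70% (coefficient of variation) on the array of cultured cells and 3.12% on that of TEC, which says nothing of the spread between tumors or cultures. The array of TECs differed from the rest in its control probes as well. Of 96 probes for external (ERCC) control RNAs, 41 were well above background on the TEC array, 1 on the array of cultured cells and at most 3 on the others. The 95th percentile of their signals was 81.9 for TEC and 13.9 for cultured cells, so that TEC signals below about this level could not be told from those of control probes. Scanner software marked 87 probes as non-uniform spots on the TEC array, 1 on the array of cultured cells and at most 4 on the others. The 3 TEC arrays shared a slide and the array of cultured cells lay on another, so slide and condition cannot be told apart. The brightest signal among 10 control probes of another kind (E1A) was 2945 on the Hepa1-6 TEC array and 56370 on that of cultured cells. It was 98429 for LSEC, 4517 for HAK-1B TEC and 5315 for KYN-2 TEC. What part this difference had in the ratios was not tested. No spot was saturated.

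**Figure D1:**
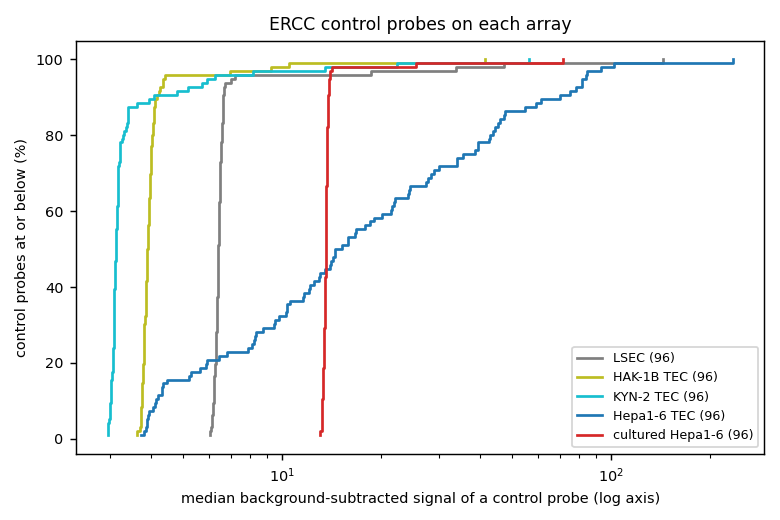
Cumulative share (y axis, percent) of the 96 ERCC control probes with a median background-subtracted signal at or below the value on the x axis (log axis), 1 line per array. On 4 arrays nearly all control probes sat in a narrow range of low signals, whereas on the Hepa1-6 TEC array the signals spread up to 235 and 42.7% were well above background.

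Log2 signals of the 2 arrays were quantile normalized together, which gives both the same distribution, and a ratio is the log2 signal in TEC minus that in cultured cells after this step. Signals printed below are those before normalization, in the arbitrary units of the scanner, so that their quotient differs from the ratio. A gene took its brightest kept probe. A gene not well above background is called dark here, and for a gene dark on 1 array only a bound is given, against the lowest normalized signal that was well above background on that array. No test applies to 1 array a side, and the precision of all values is limited by that number. Fewer cells of a type and less RNA per cell cannot be told apart in bulk RNA.

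The ratio was 8-fold or more towards TEC for 2395 genes (8.08% of the 29650) and towards cultured cells for 836 (2.82%). Of the genes higher in TEC, 2048 were dark in culture. Counted by their bound, 1098 genes (3.70%) were at least 8-fold higher in TEC and 763 (2.57%) at least 8-fold higher in cultured cells. The bounds towards culture rest on dim TEC signals. With the 95th percentile of the control probes (81.9 in TEC) as the floor, 283 genes were past 8-fold towards culture. The 1098 towards TEC could not change, since the floor already used in culture (log2 6.37) lay above that of the control probes (4.31). Among the 16599 genes well above background on both arrays, 347 were 8-fold or more higher in TEC and 503 in cultured cells, so that the larger number lay on the other side once dark genes were set aside. The share of the 3231 genes that were higher in TEC was 74.1% (95% Wilson interval over genes 72.6% to 75.6%, which covers counting error only and not the spread between samples). The median log2 ratio of all kept genes was -0.01, with an SD of 2.03. At the limit towards TEC, Fcgrt (8.01-fold, 9434 in TEC and 1636 in culture) lay just inside and Snrpn (7.99-fold, 129 in TEC and dark in culture) just outside. Towards cultured cells, Cachd1 (8.03-fold, 1325 in culture and 173 in TEC) lay just inside and Ryr1 (7.99-fold, 505 and 90.2) just outside. Of the 9556 genes with more than 1 kept probe, 25 had probes past 8-fold in opposite directions. Spots marked as non-uniform gave 42 of the 1098 genes at least 8-fold higher in TEC.

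**Figure D2:**
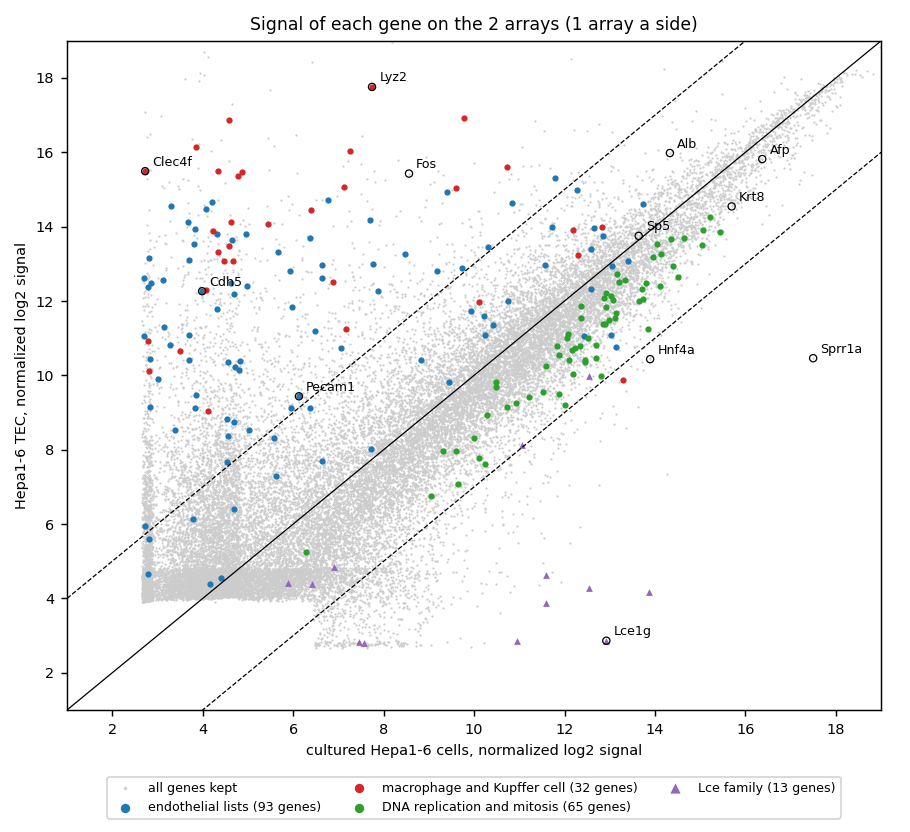
Normalized log2 signal of each of the 29650 kept genes in cultured Hepa1-6 cells (x axis) and in Hepa1-6 TEC (y axis), with equality as a solid line and 8-fold as dashed lines. Most endothelial and macrophage genes lie above the upper dashed line or near it, replication and mitosis genes lie in a band just under equality, and the Lce family lies at the lower right.

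The 6 defining endothelial genes were well above background in TEC and dark in culture. The signal of Cdh5 was 4083 ± 408 (spot error given by the scanner software) in TEC and 13.5 in cultured cells, at least 59.3-fold apart. Kdr, the main VEGF receptor, read 7179.9 in TEC and 13.2 in culture with a log2 bound of 6.74. For Kdr and some genes below, other probes disagreed, and the least of the 3 Kdr probes had a log2 ratio of -0.40. Pecam1, the gene of the protein used for the selection, read 656 ± 65.7 and 49.6, a bound of 8.36-fold. The angiopoietin receptor partners Tie1 (bound 16.1-fold) and Tek (4.50-fold) and the ETS factor Erg (6.84-fold) were dark in culture too, and the bounds of Tek and Erg did not reach 8-fold because their TEC signals were only 374 and 548. All 6 markers were well above background on the other 3 arrays.

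Markers of the hepatoma line were bright on both arrays. Afp read 104380 ± 10438 in cultured cells and 47243 ± 4724 in TEC, a log2 ratio of -0.55, whereas it read 249 in LSEC and 71.1 and 158 in the TECs of HAK-1B and KYN-2 tumors. Krt8 read 64540 in culture and 19270 in TEC (log2 ratio -1.15) against at most 338 on the other 3 arrays. Krt18 read 255301 in culture and 84270 in TEC (log2 ratio -1.22), and at most 3556 on the other 3 arrays. The TEC array held the defining endothelial markers that its label calls for, together with the hepatoma markers Afp, Krt8 and Krt18 at ratios within 3-fold of the culture. Albumin (Alb), the main plasma protein, was higher in TEC (52318 against 25374, log2 ratio 1.65). Hnf4a, the master regulator of hepatocyte identity, was lower in TEC (1241 against 18897), a log2 ratio of -3.46. The part that tumor cell RNA in the TEC sample had in the values below was not tested.

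**Figure D3:**
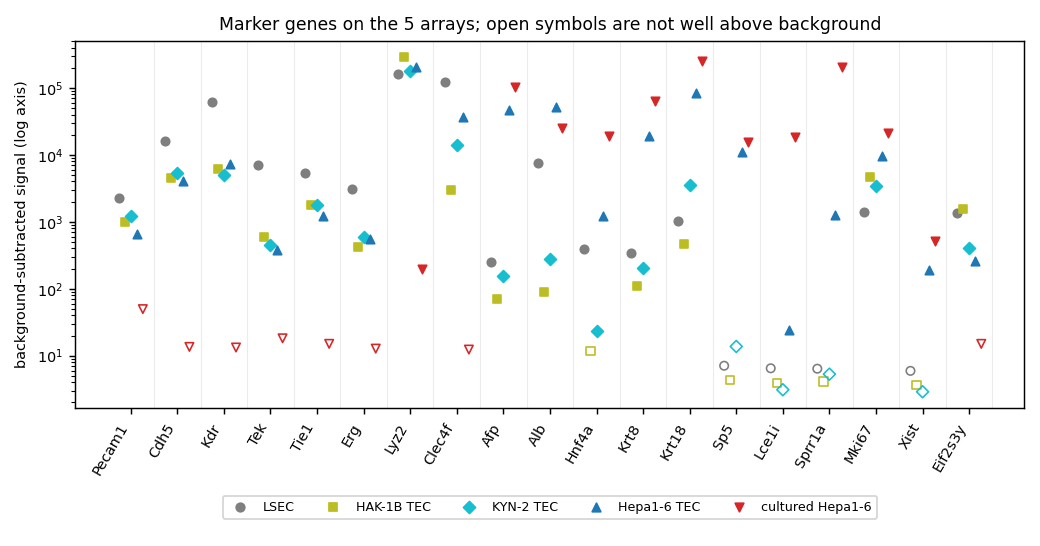
Background-subtracted signal (y axis, log axis) of marker genes on the 5 arrays, with open symbols for a gene that was not well above background. Endothelial genes were dark only in cultured cells, and the hepatoma genes Afp, Krt8 and Krt18 lay close together on the 2 Hepa1-6 arrays and far lower on the other 3.

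Receptors of endothelial cells formed the first of the gene lists, and all 23 members were well above background in TEC and 12 in culture. Of the 23, 14 were at least 8-fold higher in TEC by their bound and 0 in cultured cells, with a median log2 ratio of 4.72 (3.98 with dark genes at their bound) against -0.01 over all genes. Plxnd1, a semaphorin receptor that guides vessel growth, read 19361 in TEC and was dark in culture, at least 289-fold apart. The guidance receptor Robo4 (12645 against 13.4) and Gpr182, a scavenger of chemokines on sinusoids (11556 against 13.9), were dark in culture with bounds of 189.9-fold and 172-fold. Eng, the co-receptor for BMP9, was measured on both arrays (5125 and 78.4), with a log2 ratio of 5.96. Flt1, the decoy receptor for VEGF, read 8032 and 354, a log2 ratio of 4.80. Not all receptors followed. Procr, the protein C receptor, read 11203 in culture and 1524 in TEC (log2 ratio -2.38), and the netrin receptor Unc5b had a log2 ratio of -1.92.

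Junction and surface proteins gave 14 of 24 members at least 8-fold higher in TEC and 0 in cultured cells, with a median log2 ratio of 3.80. Cd93 was measured on both arrays, at 21797 in TEC and 86.9 in culture, a log2 ratio of 7.94. The receptor phosphatase Ptprb, which restrains Tie2 signalling, read 11577 against 17.1 and was at least 172-fold higher in TEC. Plvap, the protein of fenestral diaphragms, read 5858 against 41.5, with a bound of 85.8-fold, and Cldn5, a tight junction protein, read 4372 against 12.6, with a bound of 63.9-fold. Icam1 (11143 in TEC, 8969.7 in culture), Mcam (20082 and 16894) and F11r (7045 and 13428) were bright in both, with log2 ratios between -0.33 and 0.90.

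Of 26 transcription factors of the endothelial lineage, Hey2 was dark on both arrays, and 9 of the other 25 were at least 8-fold higher in TEC, 0 in cultured cells (median log2 ratio 3.15, or 2.38 at the bounds). Lmo2 and Lyl1, partners in the complex that specifies blood and vessel precursors, had bounds of 109-fold and 122-fold. Klf2, which responds to flow, read 25168 in TEC and 707 in culture, a log2 ratio of 5.54. Sox18 (bound 11.5-fold), Fli1 (21.9-fold) and Tal1 (8.57-fold) were dark in culture. Hhex, which hepatocytes and endothelium both use, went the other way, at 1848 in TEC and 6704 in culture (log2 ratio -1.38).

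Sinusoidal genes had a larger median ratio than the receptors. All 21 were well above background in TEC, 5 in culture, and 15 were at least 8-fold higher in TEC, with a median log2 ratio of 6.33 (4.71 at the bounds). Clec4g, a lectin of the sinusoid, read 21084 in TEC and 13.7 in culture, at least 314-fold apart, and 263755 in LSEC. The scavenger receptors Stab1 (14759 against 192, log2 ratio 6.46) and Stab2 (6476 against 77.2, log2 ratio 6.33) were measured on both arrays. Lyve1, the hyaluronan receptor, read 5117 against 12.2 and had a bound of 75.2-fold, and Wnt2, an angiocrine signal to hepatocytes, read 1215 against 13.2 with a bound of 16.3-fold. Both were above background in HAK-1B TEC (2223 and 611) and KYN-2 TEC (5599 and 1255) as well. The summed signal of the 21 genes was 848655 in LSEC, 117863 in Hepa1-6 TEC, between 85254 and 113410 for the other TEC arrays, and 2947 in cultured cells.

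Genes of tip cells and of tumor vessels were less separated, and 19 of the 27 were above background in cultured Hepa1-6 cells. At least 8-fold higher in TEC were 7 of 27, against 0 in cultured cells, and the median log2 ratio was 1.20, or 0.64 with the median over the probes of each gene. Esm1, a proteoglycan secreted by tip cells, read 9805 in TEC and 137 in culture (log2 ratio 6.28), and 787 in LSEC. Kcne3, Cxcr4 and Adm, all dark in culture, had bounds of 31.6-fold, 20.9-fold and 20.1-fold. Other members leaned towards the culture, with log2 ratios of -2.17 for the laminin chain Lamb1, -1.67 for the Notch ligand Jag1 and -1.15 for Igfbp3. Angpt2, the destabilising angiopoietin, read 594 and 644 (log2 ratio 0.00).

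Most macrophage genes were far brighter in TEC than in culture. Of 23 members, all well above background in TEC and 11 in culture, 19 were at least 8-fold higher in TEC, and the median log2 ratio was 8.06 (7.14 at the bounds). Lyz2, myeloid lysozyme, read 202423 ± 20242 in TEC and 198 ± 24.7 in culture, a 1034-fold difference and the largest ratio among genes with official-style symbols measured on both arrays. Ctss, a lysosomal protease of antigen-presenting cells, read 98634 against 14.3, at least 1443-fold apart. The complement chains C1qa, C1qb and C1qc read 34022, 17972 and 58393 in TEC and were all dark in culture. Csf1r, the receptor that macrophages need to survive, read 102807 and 945 (log2 ratio 7.14). Itgam was measured on both arrays and differed by less than 2-fold (log2 ratio 0.94). Gpnmb, a glycoprotein of phagocytes and of many tumor lines, was the 1 member with a ratio below 0, at 12316 in culture and 859.7 in TEC (log2 ratio -3.42). The summed macrophage signal was 788868 in Hepa1-6 TEC, between 760837 and 1697450 on the other 3 arrays, and 28589 in cultured cells, so that the 4 samples taken from tissue all carried it.

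Kupffer cell genes followed the macrophage list. Clec4f, which marks Kupffer cells, read 37313 in TEC and 12.3 in culture, at least 556-fold apart, and 121917 in LSEC. Cd5l (bound 547-fold), Cd163 (104-fold), Vsig4 (60.7-fold) and Timd4 (23.2-fold) were dark in culture, and in all 7 of 9 members were at least 8-fold higher in TEC (9 above background in TEC, 2 in culture). All 4 were above background on the other 3 arrays, and the summed signal of the 9 genes was 388325 in LSEC, 111304 in Hepa1-6 TEC, between 29716 and 49982 for the other TEC arrays, and 10101 in cultured cells.

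Neutrophil genes were at least 8-fold higher in TEC for 10 of 17 members and in cultured cells for 0. The median log2 ratio was 5.82 (3.79 at the bounds), and 4 were above background in culture. S100a9 and S100a8, the calprotectin subunits, read 17993 and 4887 in TEC and were dark in culture, with bounds of 269-fold and 71.7-fold. Both were lower in LSEC (757 and 253) and KYN-2 TEC (927 and 417), and higher in HAK-1B TEC (89369 and 30530.3). Mmp9, a gelatinase that neutrophils store, read 10109.5 in Hepa1-6 TEC and was dark in LSEC and in culture. Ly6g had a log2 ratio of -2.60, with 1146 in culture and 194 in TEC.

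Lymphocyte genes differed less. For T and NK cells, 6 of 20 members were at least 8-fold higher in TEC (median log2 ratio 2.47, or 1.13 at the bounds). Gzma, a granzyme of cytotoxic cells, read 32130.2 in Hepa1-6 TEC and 13.1 in culture, at least 483-fold apart, and at most 1385 on the other 3 arrays. It was brighter in Hepa1-6 TEC than on any other array, as was Gzmb at 1815 (at most 380.4 elsewhere). T cell genes divided. Lck, Cd2 and Cd3g were dark in culture, with bounds of 19.7-fold, 7.62-fold and 2.28-fold, while 3 of the 20 members had a ratio below 0. Cd3e, a chain of the T cell receptor complex, read 551 in TEC and 541 in culture, and Cd8a read 30.7 in TEC and was dark on the other 4 arrays. The summed signal of the 20 genes was 46326 in Hepa1-6 TEC, between 7906 and 13614 on the 3 arrays of LSEC and the other TECs, and 5812 in culture. Among B cell genes, 2 of 10 kept members were at least 8-fold higher in TEC, among them Cd79b (log2 bound 4.83).

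Genes of antigen presentation through MHC class II were mostly dark in culture. Of 15 members 10 were at least 8-fold higher in TEC, with a median log2 ratio of 5.49 (4.84 at the bounds). Cd74, the invariant chain, read 70199.8 against 26.7 (bound 1036-fold), H2-Ab1 read 74312 against 46.8 (1096-fold), and Ciita, the coactivator that turns these genes on, read 2623 against 13.2 (37.0-fold). The summed signal was 280915 in Hepa1-6 TEC and 3553 in culture, where 3 of the 15 were above background.

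Platelet and red cell RNA was present as well. Pf4, platelet factor 4, read 62859 in TEC and 13.5 in culture, at least 927-fold apart, and Hba-a1, the alpha chain of hemoglobin, read 43439 and 164 (log2 ratio 8.18). Across arrays Hba-a1 ranged from 5688 in HAK-1B TEC to 222950 in LSEC.

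Stromal genes gave smaller counts. Of 20 genes of fibroblasts and stellate cells, 5 were at least 8-fold higher in TEC and 0 in cultured cells, and the median log2 ratio of 2.41 became 0.45 with dark genes at their bound. The collagens Col1a2 (3985 against 22.8, bound 57.7-fold), Col1a1 (2019 against 21.4, 28.2-fold) and Col3a1 (1541 against 23.3, 21.1-fold, with a second probe at -0.99) were among the 5. All 3 form the fibres of connective tissue, and Col1a1 was dark in LSEC. In 4 of the 20 the ratio lay below 0. Dcn, a matrix proteoglycan, was brighter in culture, at 174722 against 29464 (log2 ratio -2.02). Pdgfra (-2.64, the lowest of the list), Fbln1 (-1.69) and Timp1 (-1.65) leaned the same way. Of 14 pericyte and smooth muscle genes 3 were at least 8-fold higher in TEC, namely Anpep (bound 106-fold), Abcc9 (35.4-fold) and Kcnj8 (11.1-fold), while the defining genes Pdgfrb and Rgs5 reached only 255 and 209 in TEC and were dark in culture. Acta2, smooth muscle actin, read 13541 against 25339 in culture at its brightest probe, while another of its 3 probes had a log2 ratio of 7.42.

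Interferon-stimulated genes and MHC class I were mostly higher in TEC. Type I and II interferons act through STAT proteins on promoters that carry an interferon-stimulated response element, whose core is GAAA, any 2 bases and GAAA again. Of 30 members, 27 had a ratio above 0, 11 were at least 8-fold higher in TEC and 0 in cultured cells, and the median log2 ratio was 2.76. Irf7, the amplifier of the response, read 48470.4 in TEC and 499.8 in culture (log2 ratio 6.92). Isg15, a ubiquitin-like protein, read 15811 and 444 (log2 ratio 5.48). The antiviral gene Rsad2 (1783 against 30.0) and Ifit3 (1058 against 16.9) were dark in culture, with bounds of 24.6-fold and 14.1-fold. B2m, the light chain of class I, was bright on both arrays (57545 and 37965, log2 ratio 1.21). In 3 members the ratio lay below 0. Oas1a (-1.67), Nlrc5 (-0.84) and Usp18 (-0.57) are those 3, and Usp18 itself dampens the response.

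This core, sought on both strands from 250 bases before to 50 bases after the start of transcription in RefSeq promoters (GRCm38.p6), stood in 11 of the 23 interferon-list members that had a promoter there (47.8%) and in 3.99% of all 27025 genes. A match is a description of the letters, not a site of binding. The windows below are the upstream stretches of 5 members higher in TEC with the largest differences among those with a match, and capitals mark the core or its reverse complement, with overlapping matches run together.
Isg15, chr4:156200840-156200931, minus strand: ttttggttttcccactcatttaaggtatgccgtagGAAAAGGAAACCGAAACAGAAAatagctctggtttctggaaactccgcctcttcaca
Rsad2, chr12:26456528-26456607, minus strand: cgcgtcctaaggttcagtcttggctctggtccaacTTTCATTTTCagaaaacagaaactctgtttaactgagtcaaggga
Ifit3, chr19:34583338-34583451, plus strand: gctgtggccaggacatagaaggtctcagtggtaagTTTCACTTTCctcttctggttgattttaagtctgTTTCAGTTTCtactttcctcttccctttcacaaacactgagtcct
Gbp2, chr3:142620569-142620648, plus strand: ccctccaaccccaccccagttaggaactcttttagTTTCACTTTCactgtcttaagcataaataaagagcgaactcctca
Gbp3, chr3:142559964-142560043, plus strand: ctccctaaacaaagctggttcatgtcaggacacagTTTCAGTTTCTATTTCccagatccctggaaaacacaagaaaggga
In Isg15 the core occurred 3 times in 1 run of overlapping copies that ended 56 bases before the start, in Ifit3 it occurred 2 times apart from each other, and in Rsad2 and Gbp2 it occurred 1 time. Gbp2 and Gbp3, guanylate-binding proteins induced by interferon gamma, had log2 ratios of 4.30 and 4.07, the former from a gene dark in culture (bound 7.32-fold).

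Immediate early genes, which cells switch on within minutes of a stimulus, were also higher in TEC. Of 24 members, 10 were at least 8-fold higher in TEC and 1 in cultured cells, and the median log2 ratio was 2.95. Fos read 35517 ± 3552 in TEC and 377 ± 40.1 in culture, a 117-fold difference. Zfp36, which degrades cytokine mRNA, read 37564 and 609 (79.0-fold), and Nr4a1 read 78815 and 3495 (32.4-fold). All 3 are among the first genes that serum induces. Egr2 (9541 and 289, log2 ratio 5.31), Jun (4.55) and Dusp1 (4.37) followed. On the other 3 arrays, whose cells were also isolated from tissue, Fos read between 40691 and 66812. Fosl1 was the exception, at 3662 in culture and 179 in TEC, 20.1-fold lower in TEC and dark in LSEC. Myc (-0.27) and the YAP targets Ctgf (-1.36) and Cyr61 (-0.42) had log2 ratios below 0. The CArG box, bound by serum response factor, was found in 2 of 17 matched members (11.8%) and in 1.81% of all genes, and both are shown with the box in capitals.
Zfp36, chr7:28379242-28379321, minus strand: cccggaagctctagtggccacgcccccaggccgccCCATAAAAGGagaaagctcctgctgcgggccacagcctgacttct
Egr2, chr10:67537459-67537538, plus strand: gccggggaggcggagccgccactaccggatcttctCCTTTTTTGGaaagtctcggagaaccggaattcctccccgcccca

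Most cytokines and chemokines were higher in TEC, with a ratio above 0 for 26 of 36. By their bound 16 were at least 8-fold higher in TEC and 1, Fgf2, in cultured cells. Ccl6 read 116492 in TEC and 12.3 in culture, at least 1684-fold apart, and the inflammatory cytokines Il1b (45972 against 14.4, bound 676-fold) and Il6 (20774 against 13.2, 309.9-fold) were dark in culture. The macrophage chemokines Ccl3 and Ccl4 read 13571 and 28129.5 in TEC and were dark in culture, with bounds of 204-fold and 423-fold. Vegfa, the main driver of vessel growth, was higher in TEC (5401 against 794, log2 ratio 3.14), while the lymphatic factor Vegfc (1453 against 11780.3, log2 ratio -2.53) and Pdgfa (-0.99) leaned towards culture. Fgf2 was 20.9-fold lower in TEC (21.4 against 355), but its TEC signal lay below the 95th percentile of the control probes, which as the floor gives a log2 bound of -2.73, and the other probe of the gene had a log2 ratio of 1.69. Ccl2, which draws monocytes, was bright on both arrays (31845 and 25761, log2 ratio 0.92).

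Every gene of the replication and mitosis lists had a lower normalized value in TEC, and 0 of them reached 8-fold. Of 33 replication genes all 33 had a ratio below 0, 22 at 2-fold or more, with a median log2 ratio of -1.15. The exception under another scaling was Ccne2, a cyclin dark in culture, which lay above 0 with each array scaled to its 75th percentile, where 32 of 33 remained below 0. Prim1, a primase subunit, read 18226 in culture and 2104 in TEC (log2 ratio -2.59). The helicase subunits Mcm3 (-1.15), Mcm6 (-0.97) and Mcm7 (-1.54) and the sliding clamp Pcna (31392 in culture, 10707 in TEC, -0.93) were closer together. All 32 mitosis genes had a ratio below 0 and 26 were 2-fold or more lower, with a median log2 ratio of -1.59. Cdk1, the mitotic kinase, read 8635 and 936 (-2.80), Kif11, the spindle motor, 1211 and 235 (-2.34), and Ect2, needed for cytokinesis, 4438 and 688 (-2.37). Mki67, the antigen Ki-67, read 21036 and 9547 (-0.52). In LSEC Mki67 read 1420.2 and Cdk1 193, and the summed mitosis signal was 306247 in cultured cells, 81436 in Hepa1-6 TEC and between 10746 and 27292 on the other 3 arrays.

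Genes of the late cell cycle often carry the letters TTTGAA (the cell cycle homology region), and genes of S phase the E2F letters TTTGGCGC. TTTGAA was found on either strand in 18 of 26 mitosis genes with a RefSeq promoter (69.2%), against 20.2% of all genes, and TTTGGCGC in 5 of 27 replication genes (18.5%), against 0.58%. The windows of Cdk1, Kif11 and Ect2, the 3 mitosis genes with a match and the largest differences, are shown with the match in capitals.
Cdk1, chr10:69352913-69353018, minus strand: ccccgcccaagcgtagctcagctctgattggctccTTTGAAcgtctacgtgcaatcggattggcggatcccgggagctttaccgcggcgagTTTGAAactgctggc
Kif11, chr19:37376328-37376381, plus strand: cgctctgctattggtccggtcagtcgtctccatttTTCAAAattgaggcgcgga
Ect2, chr3:27153952-27154027, minus strand: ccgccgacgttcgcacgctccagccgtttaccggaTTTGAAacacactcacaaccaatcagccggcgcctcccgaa
In Cdk1 the letters occurred 2 times, the nearer copy 9 bases before the start, and in Kif11 and Ect2 1 time. The remaining 3 of the 7 motifs searched were found in few members or none. The sterol element TCACCCCAC was in 1 of 16 cholesterol genes (6.25%, Hmgcs1) against 0.61% of all genes, the HNF4 letters CAAAGTCCA in 0 of 30 plasma protein genes against 0.56%, and the ETS letters TTTCCTGT in 0 of 12 endothelial factors against 3.32%.

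Other lists of growth and biosynthesis were lower in TEC without reaching 8-fold in most members. All 24 genes of ribosome biogenesis had a ratio below 0, with a median of -1.11. Nucleolin (Ncl) read 85502 in culture and 26187 in TEC (-1.10). For cholesterol synthesis and uptake, 19 of 24 had a ratio below 0 (median -1.39), with Sqle, squalene epoxidase, at 26219 and 2724 (-2.74). Among 23 kept genes of amino acid supply and ATF4, 15 had a ratio below 0 (median -0.85) and 2 were at least 8-fold lower in TEC, Chac1 (13.9-fold), which breaks down glutathione, and Cth (9.61-fold), which makes cysteine. Phgdh, the entry to serine synthesis, read 185664 and 36854 (-1.81), whereas Ddit4, an inhibitor of mTOR, went the other way (2.89). The median over all kept genes was -0.01, and 17 housekeeping genes had a median of -0.07, with Actb at 277760 in TEC and 311026 in culture, Gapdh at 190974 and 242677, and Tfrc, the transferrin receptor, lowest at -1.88.

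Liver genes did not move as 1 group. Of 39 kept plasma proteins and apolipoproteins 15 were at least 8-fold higher in TEC and 0 in cultured cells, with a median log2 ratio of 2.97 (1.84 at the bounds). Haptoglobin (Hp) read 14157 in TEC and 30.0 in culture (bound 213-fold), coagulation factor F10 read 11745 and was dark in culture (175-fold) and Ambp read 13254 and 126 (113-fold). Fetuin (Ahsg) read 4560.5 in Hepa1-6 TEC, 2981 in LSEC and 14.4 in culture, where it was dark. Transferrin (Trf) was bright on both arrays (172855 and 56513, log2 ratio 2.08), and Rbp4, the retinol carrier, was lower in TEC (19777 against 139274, -2.22). These genes were thus in part higher in the TEC sample than in the hepatoma line itself, and all 39 were also above background in LSEC and between 26 and 34 on the other TEC arrays.

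Metabolic enzymes of the hepatocyte gave 4 of 33 kept members at least 8-fold higher in TEC, among them Adh1 (bound 31.0-fold), Cyp3a11 (21.4-fold, from a non-uniform spot) and Cyp2e1 (8.43-fold). A further 5 enzymes and transporters, Cps1, Otc, Cyp8b1, Ugt2b1 and Baat, were dark on both arrays. Aldh1a1 (69554 in culture, 18502 in TEC, -1.31) leaned towards the line. Liver transcription factors divided, with 2 of 21 at least 8-fold higher in TEC (Cebpb and Nr2f1) and 2 at least 8-fold lower, among them Hnf4a. Cebpb, which drives the acute phase and also acts in macrophages, read 35781 and 5427 (3.29), and Foxa2 read 4476 and 13776 (-1.05).

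Oncofetal genes were detected in both samples. Gpc3, a proteoglycan of hepatoma, read 1241 in TEC and 970.2 in culture (0.63). The fetal RNA-binding proteins Igf2bp1 (1111 and 8897, -2.57) and Igf2bp3 (1713 and 7327, -1.62) were lower in TEC and at most 80.1 on the other 3 arrays. Of 23 kept members, the imprinted genes Mest (bound 22.1-fold) and Plagl1 (9.01-fold) were at least 8-fold higher in TEC. Epithelial genes had a summed signal of 383353 in culture, 121922 in Hepa1-6 TEC and at most 4698 on the other 3 arrays, a sum that follows its brightest members. By ratio the list did not lean as a whole, with a median log2 ratio of -0.15, 11 of 24 kept members above 0 and 13 below. Of these, the adhesion protein Perp (9.21-fold lower in TEC) and the junction protein cingulin (Cgn, 15.2-fold lower) passed 8-fold, at 3048 and 458 in TEC against at most 43.1 and 68.8 on the other 3 arrays. Krt23 was the 1 epithelial member at least 8-fold higher in TEC, at 4975 against 13.9 in culture (bound 73.2-fold).

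Glycolytic and hypoxia-induced genes were partly higher in TEC. Of 25 members 3 were 8-fold or more higher, Slc16a3 (bound 225-fold), the lactate exporter, Slc2a3 (21.6-fold), a glucose transporter, and Bnip3 (8.57-fold), which acts in mitophagy. The core enzymes were close to equal, with log2 ratios of 0.16 for Aldoa, -0.15 for Pgk1 and 0.01 for Ldha. The pH regulator Car9 read 457 in TEC and 54.2 in culture, where it was dark (bound 5.59-fold). Car9, Pecam1 and Pcna encode proteins that the study stained.

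Wnt targets marked both samples. Sp5, a direct target of beta-catenin, read 15769.8 in culture and 11141 in TEC (log2 ratio 0.11, or -0.43 with each array scaled to its 75th percentile) and was dark on the other 3 arrays. Lgr5 gave the same picture (1414 and 1411, 0.33), and Axin2 read 1136 and 519 (-0.97). Notum and Nkd1, feedback inhibitors of the pathway, were higher in TEC, with log2 ratios of 2.43 and 2.64. Of 19 kept members 1 passed 8-fold in each direction, and neither was a clear call. Lrp6, at 414776 in TEC, came from a non-uniform spot, and its other probe had a log2 ratio of -1.20. Sfrp1 (279.9 in culture, 56.8 in TEC) had a TEC signal below the 95th percentile of the control probes.

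**Figure D4:**
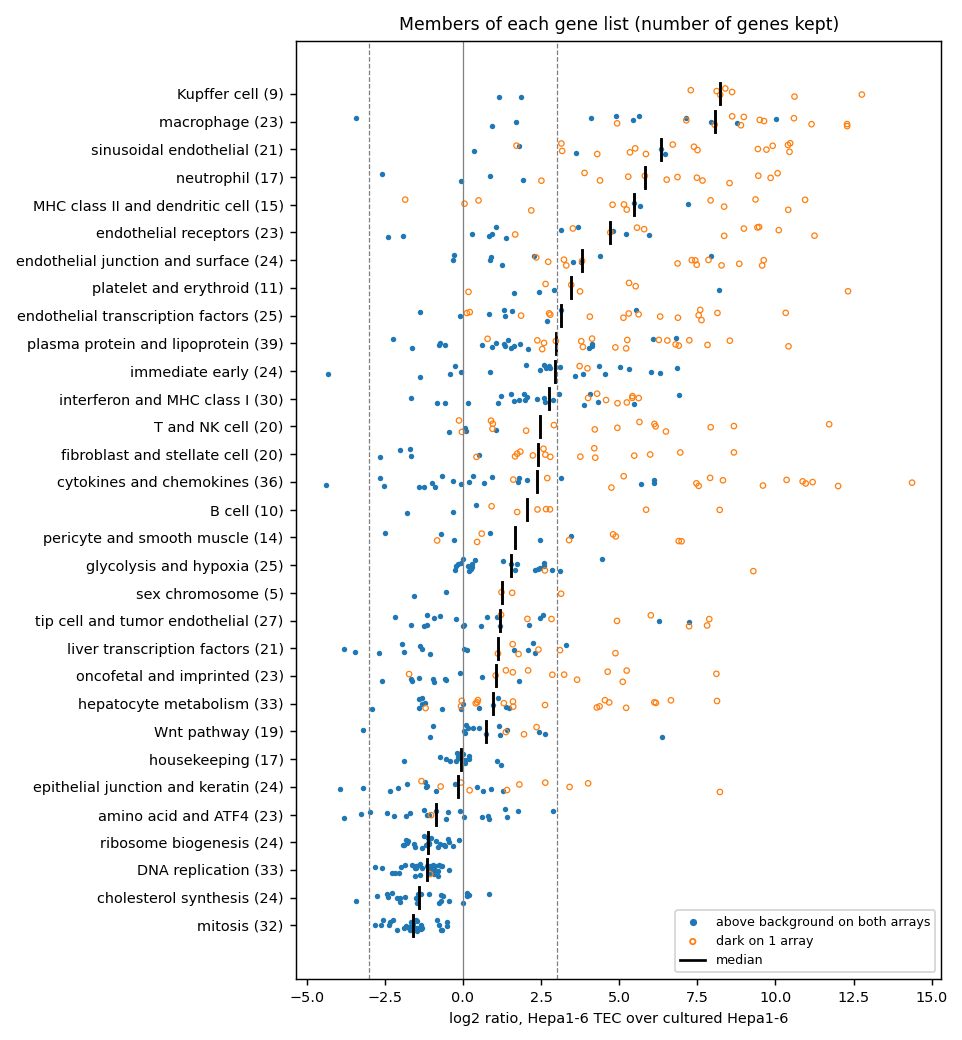
Log2 ratio of TEC over cultured Hepa1-6 (x axis) for each kept member of 31 gene lists (number of genes in brackets), with filled points for genes above background on both arrays, open points for genes dark on 1 array and a bar at the median. Dashed lines mark 8-fold, and open points show the ratio as measured, which is larger than the bound.

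Genes of the sex chromosomes were read as a check of the samples. Xist, which is transcribed from the inactive X chromosome, read 508 in cultured cells, 191 in Hepa1-6 TEC and was dark on the other 3 arrays. Eif2s3y, on the Y chromosome, read 263 in Hepa1-6 TEC and between 402 and 1559.5 on the other 3 arrays, and was dark in culture. Hepa1-6 TEC was the 1 array of the 5 with both Xist and Eif2s3y above background, and the methods name female mice. Other Y-linked genes of the list did not separate the 2 samples. Kdm5d was well above background in TEC and in culture (log2 ratio -0.53), and Ddx3y and Uty, dark in culture, had log2 bounds of 0.

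The genes furthest towards TEC after Lyz2, among those measured on both arrays, were of myeloid cells, red cells and vessels. Crip1 read 72854 and 165 (log2 ratio 8.92), Fcer1g, the signalling chain of Fc receptors, 54106 and 133 (8.77), and Mpeg1, a pore-forming protein of macrophages, 45959 and 128 (8.56). Hba-a2 (8.54), Hba-a1, Evl (8.09) and Aif1 (7.94) belonged to the same 10, as did Ear2, an eosinophil-type ribonuclease with 28216 in TEC and 117 in culture. Gpihbp1, which anchors lipoprotein lipase to the capillary wall, read 21921 and 68.9 (8.21). Of the 8 genes with the largest bounds, 5 were on uniform spots, Tmsb4x, Ccl6, Ctss, H2-Ab1 and Ccl24, genes of myeloid cells except for the actin-binding Tmsb4x, with bounds from 1046-fold to 1950.3-fold. The other probe of Tmsb4x disagreed in size, with a log2 ratio of 2.58. The other 3, among them B3gat2 and Tsks, were on spots marked as non-uniform, and B3gat2 and Tsks were dark on the other 4 arrays.

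Towards cultured cells the most separated genes came from the cornified envelope, a protein shell of keratinocytes whose genes lie side by side on chromosome 3. Lce1i, a late cornified envelope protein, read 18485 ± 1849 in culture and 23.9 ± 5.24 in TEC, an 826-fold difference, and its probe lies at chr3:92581159-92581218 (mm9). Lce1h read 7290.2 and 27.0 (309.8-fold). Lce1g read 9530.5 in culture and was dark in TEC, at least 519-fold lower. The family was chosen for description after its values were seen, and all 13 kept Lce genes had a ratio below 0, with a median of -4.77 and 8 at least 8-fold lower in TEC by their bound. With the control probes as the floor in TEC, the bounds of Lce1i, Lce1h and Lce1g were -8.12, -6.80 and -7.17 on the log2 scale, and those of Lce1d (-1.81) and Lce1f (-1.71) no longer reached 8-fold. The members were not alike. Lce1a2 (7211 in culture, 925 in TEC) and Lce1j (2451 and 289.5) were above background on all 5 arrays, whereas on the other 3 arrays Lce1g, Lce1h and Lce1i were dark. RNA of near-identical members cannot always be told apart by a 60-base probe, so values of single Lce and Sprr genes are uncertain.

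Near them, Sprr1a, a small proline-rich envelope protein at chr3:92287955-92288014 (mm9), read 207134 ± 20713 in culture and 1261 ± 126 in TEC, a 131-fold difference, and was dark on the other 3 arrays. Sprr1b read 1802 and 92.7 (24.8-fold), whereas Sprr2a2 was bright everywhere (185543 and 138445) with a log2 ratio of 0.00 at its brightest probe and -6.21 at another. In the same chromosomal region the calcium-binding S100 genes went both ways, with S100a3 at 995 in culture and 24.3 in TEC (-5.65, or -4.09 with the control probes as the floor), S100a6 at 202755 and 66653 (-1.14), and S100a8 and S100a9 higher in TEC as above. The trefoil factors, peptides of mucous epithelia, were all lower in TEC and dark on the other 3 arrays. Tff1 read 3436 and 56.6 (-6.56, or -5.77 with that floor), Tff2 1072 and 234 (-2.19), and Tff3 13085 and 383 (-4.79).

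Of the other genes furthest towards culture and measured on both arrays, Ankrd1, a target of YAP, read 24265 and 184 (122-fold). Pbp2 (-7.06), Tmem130 (-7.00), Tmem179 (-6.64) and Arhgap36 (-6.53) were dim in TEC, between 29.6 and 72.0, which lies below the 95th percentile of the control probes. The transcription factor Lmx1a, best known from the brain, and the chemokine Ccl20 were dark in TEC, with signals of 1174 and 1069 in culture and bounds of 71.6-fold and 65.6-fold. With the control probes as the floor, the log2 bounds were -5.68 for Pbp2, -5.96 for Tmem130, -5.13 for Arhgap36, -4.32 for Lmx1a and -4.19 for Ccl20. Ank1 and Piezo2 are in the same list of 8, but other probes of these genes disagreed in direction.

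The other 3 arrays, which the 8-fold limit did not use, differed in how many genes of each group they detected. Of the 1098 genes at least 8-fold higher in TEC, 92.2% were well above background on all 3, against 61.7% of all kept genes. Of the 763 at least 8-fold higher in cultured cells, 17.8% were. Dark on all 3 arrays were 45 of the 1098 (4.10%) and 447 of the 763 (58.6%), against 26.5% of all kept genes. The shares were not matched for brightness. To be counted the 1098 had to be bright in TEC, whereas 12686 kept genes passed the filter by their TEC signal alone. In Hepa1-6 TEC itself 503 of the 763 (65.9%) were well above background, against 98.8% of all kept genes. The 95th percentile of its control probes was passed by 146 (19.1%), against 65.9% of all kept genes. Both gaps follow from the 8-fold rule, which used this array, and say nothing further of the genes. With that percentile as the floor the group towards culture fell to 283 genes. Of these 30.0% were well above background on all 3 other arrays and 44.9% on none. The 1098 genes towards TEC stayed the same by construction. The kinds of gene name differed mainly in the share towards TEC. Among 16066 official-style symbols, 952 (5.93%) were at least 8-fold higher in TEC and 323 (2.01%) in culture. Of 3118 lincRNA names 25 (0.80%) and 86 (2.76%) were, against 3.70% and 2.57% of all kept genes. The lincRNA share towards culture was thus close to that of all genes.

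**Figure D5:**
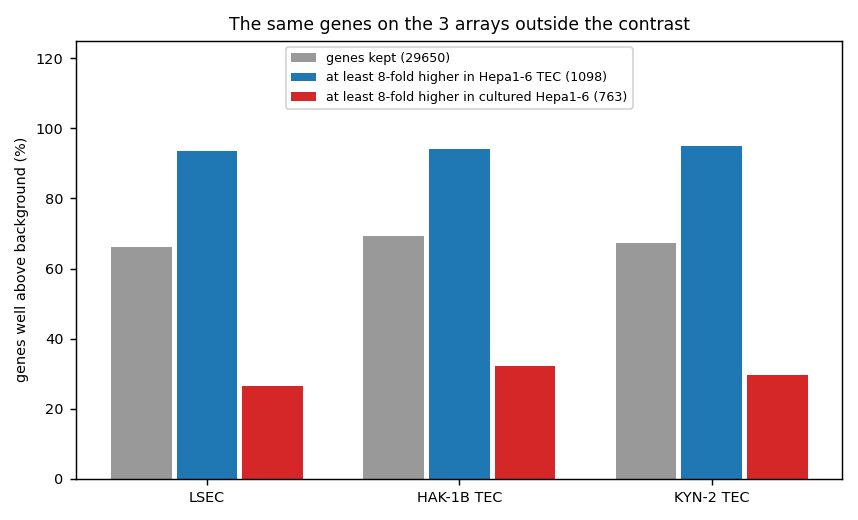
Share of genes (y axis, percent) well above background on the arrays of LSEC and of TECs from HAK-1B and KYN-2 tumors, for all 29650 kept genes, the 1098 at least 8-fold higher in Hepa1-6 TEC and the 763 at least 8-fold higher in cultured Hepa1-6 by their bound (283 with the control probes as the floor). The first of the 2 groups lies above all kept genes and the second below them on each array. The groups were not matched for brightness.

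The last group holds genes bright in the line and dark in the other endothelial samples, by a rule chosen after their values were seen. A signal of at least 1000 in cultured cells with no signal above background on the other 3 arrays was found for 117 genes. In Hepa1-6 TEC 112 of them (95.7%) were well above background, against 8990 of the 8992 other genes with such a signal in culture, and the same flag passed 42.7% of the control probes on that array. A TEC signal over the 95th percentile of the control probes (81.9) was read for 95 of the 117 (81.2%), against 99.9% of the other genes. Their log2 ratios had a median of -2.81, and the 10th and 90th percentiles were -6.54 and -0.92, so that the spread among them was wide. Of the 117, 56 were 8-fold or more lower in TEC and 12 were within 2-fold. Sp5 (0.11) stood near the upper end, Pnma5 (25612 in culture, 7653 in TEC, -1.13) and the keratin Krt20 (22405 and 4063, -1.88) followed, Tceal5 (30023 and 2384, -3.13) lay near the middle, and Fgfbp1 (8444 and 157, -5.73) and Sprr1a lay at the lower end. The 8992 other genes had a median log2 ratio of -0.32.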

How the data were processed

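Gene expression was measured on 5 single-colour Agilent arrays, of which 2, Hepa1-6 TEC and cultured Hepa1-6 cells, were compared with 1 array each. The authors deposited scanner output with spot intensity in arbitrary units and a normalized intensity table. The labels name Feature Extraction 9.5.1.1 and the file headers 10.7.1.1, which subtracted background. The deposited table had a median of 43.0 in both columns and a rank correlation of 1.00 with the spot intensities, and its scale was not stated.

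Control spots were left out, spots of 1 probe averaged and log2 intensities quantile normalized over both arrays. Probes were kept if well above background on either array. These and further steps used python 3.11.15, pandas 2.3.3, numpy 2.4.6 and scipy 1.17.1, with figures in matplotlib 3.10.9. Background correction by normexp, 1 of the alternatives below, used limma 3.58.1 in R 4.3.3. The steps were tested on simulated data. A gene took its brightest kept probe. With 1 array a side no test was made. Genes were named by these rules: the 10 largest differences each way among official-style symbols measured on both arrays, the 8 largest bounds each way among those dark on 1 array, up to 8 members of each of 31 lists with the largest differences, and the defining markers. Further list members, gene families and motifs were named after their values were seen. The members and lists were chosen with earlier results of these data known. Some genes are not reported here, although counts and medians of their lists include them.

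Alternatives were other scalings (75th percentile of each array, quantile over 5 arrays), the deposited table, background correction by normexp (offset 50), changed filters on spots and dim probes, other rules for several probes, the methods' rule (a Z-score limit of 2 with a ratio limit), bounds for dark genes and, added after the data were seen, a floor at the 95th percentile of ERCC control probes. Probe positions are mm9 per the file headers. Promoters came from RefSeq (GRCm38.p6), and protein sequences were not used here. The deposited files of the other 3 arrays were used for signal levels and for the quantiles over 5 arrays only.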

Additional observations from a re-analysis of the deposited data

Results flagged for a closer look

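On the Hepa1-6 TEC array 42.7% of the 96 ERCC control probes were well above background, against 1.04% on the array of cultured cells, 3.13% for LSEC, 1.04% for HAK-1B TEC and 2.08% for KYN-2 TEC. These probes belong to no comparison above, and 52 of them read higher and 44 lower on the Hepa1-6 TEC array than on the array of cultured cells, with medians of 14.9 and 13.6. The sources used here name no ERCC RNA added to a sample. The Hepa1-6 TEC array also had 87 probes with non-uniform spots, against 1 on the array of cultured cells and at most 4 on the other 3. Among the genes on such spots, B3gat2 read 107330 and was dark on the other 4 arrays. What part these signals had in the ratios of dim genes was not tested.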

How the results depend on the processing

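No list median changed sign beyond 2-fold under any scaling or floor tried, and the endothelial, sinusoidal, macrophage and Kupffer medians stayed above 2-fold towards TEC, except that tip cell and tumor endothelial genes fell from 1.20 to 0.64 (log2) with the median over probes, and the replication, mitosis and ribosome biogenesis medians above 2-fold towards culture under all 6 alternatives run on lists. The counts of genes past 8-fold did depend on the processing, and the cause was not tested unless it is named. Against 2395 genes higher in TEC, 836 in culture and a share of 74.1%, normexp gave 1041, 144 and 87.8%, and the methods' rule gave 1321 and 476. Bounds for dark genes gave 1098 and 59.0%. The ERCC floor, chosen after the data were seen, gave 1098, 283 and 79.5%. Compared with the bounds, this floor could lower only the count towards culture. Keeping only genes above background on both arrays gave 348, 508 and a reversed share of 40.7%, since this filter removes the genes dark in culture. The share was 84.0% with the 75th percentile, which moved the median of all genes to 0.31, 71.6% with quantiles over 5 arrays, 72.2% in the deposited table, 72.6% with no filter and 71.8% when every probe had to pass. Single genes turned as well. Lrp6 was -1.18 without non-uniform spots. Nr4a3 was -0.84 with quantiles over 5 arrays, -0.79 in the deposited table and -0.78 above background on both arrays, where Srgn was -0.58. Of the log2 ratios near 0, Sp5, Aldoa, Ldha and Angpt2 fell below 0 with the 75th percentile. No paired analysis was possible because there was 1 array per condition, and no array could be left out. Signals near background limit dim genes: bounds start at the dimmest detected signal, and TEC signals under 81.9 lay within those of control probes.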
